A study of Mus musculus with 14 samples.

Results

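The livers of mice that had developed autoimmune hepatitis (AIH) without any treatment were compared with the livers of asymptomatic mice of the same genotype, by RNA sequencing of whole tissue and across all genes. The members are 10 of the 14 libraries of the series, chosen by their phenotype label: 5 labelled as spontaneously developing autoimmune hepatitis, here AIH 1 to 5, and 5 labelled asymptomatic, here asymptomatic 1 to 5. All 10 mice were untreated, 20 weeks old and Tet2fl/fl vav cre+, so that both groups carry floxed Tet2 alleles and the Vav-driven Cre recombinase, which is active in cells of the blood lineage and their precursors. The other 4 libraries are from healthy Tet2fl/fl cre- littermates of the same age and serve here as a reference level. The series title places the study in a model in which loss of Tet2 leads to passage of gut bacteria and a hepatitis of interferon gamma producing CD8 T cells (Tc1 cells), and the comparison within one genotype asks what distinguishes livers with the disease from livers without it when the deletion is shared.

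Autoimmune hepatitis is an attack of lymphocytes on the liver's parenchymal cells, with T cells, plasma cells and antibody, and it is treated by suppressing the immune response. Tet2 encodes a dioxygenase that oxidises methylated cytosine in DNA, and its loss in blood stem cells favours myeloid expansion and is a common cause of clonal blood formation in ageing humans. Most RNA in a piece of liver comes from hepatocytes, which make the plasma proteins and the metabolic enzymes, while Kupffer cells are its resident macrophages, stellate cells its main source of collagen and sinusoidal endothelial cells the lining of its blood channels.

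Each library held between 15968400.0 and 18156900.0 reads counted in genes, and the gene for albumin (Alb), the main hepatocyte product, was at 71253, 70065, 136329, 87218 and 68213 CPM (read counts scaled to a common library size) in AIH 1 to 5 and at 88751, 115495, 102207, 103616 and 89897 CPM in asymptomatic 1 to 5. The libraries also differ in ways the labels do not give. Read from Xist and 4 Y-linked genes, all 5 asymptomatic mice were males, AIH 4 was a male, AIH 1, 2, 3 and 5 were females, and the controls were 2 males and 2 females. The share of reads that did not align was 8.31, 4.93, 7.80, 8.05 and 9.27 percent in asymptomatic 1 to 5 and 3.77, 3.23, 3.61, 6.54 and 3.67 percent in AIH 1 to 5, against 4.17 to 4.89 percent in controls. The log2 ratio of Dbp to Arntl, a pair of clock genes that peak at opposite times of day, was 5.69, 1.41, 5.87, 6.02 and 4.65 in asymptomatic 1 to 5 and 2.62, 5.70, 4.15, -1.85 and 2.91 in AIH 1 to 5. On the first principal component of the 10 libraries, which held 56.0% of the variance, all 5 AIH libraries lay on one side, with AIH 4 (the male) nearest to the asymptomatic ones and asymptomatic 2 nearest to the AIH ones. Tet2 itself, the targeted gene, was at 7.87, 7.34, 14.2, 7.55 and 15.4 CPM in AIH 1 to 5, 8.06, 9.23, 4.77, 5.49 and 6.52 CPM in asymptomatic 1 to 5 and 8.53 to 11.98 CPM in the 4 controls, a log2 difference of 0.62 ± 0.25 (SE, adjusted p = 0.079). The groups overlapped. Whole-gene counts from a tissue in which few cells are blood cells do not test the deletion.

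Of 14638 genes tested, 4355 differed between the groups (edgeR's quasi-likelihood test, Benjamini-Hochberg adjusted p under 0.05), which is 29.8% of them. Of these, 2796 were higher in AIH (19.1%) and 1559 were lower (10.7%). The counts of list members called below are to be read against these shares. Of the genes tested, 1105 passed the filter on low counts only through the AIH livers, and 297 only through the asymptomatic ones. A gene of the first kind had to be high in AIH to be tested, so where a list holds many of them the count is also given for the members that pass without the AIH libraries. The rises were the larger changes: 2256 genes were higher by over 2-fold and 349 lower, and 534 were higher by over 8-fold and 34 lower. The median log2 difference over all genes was -0.03. Scaled by the library totals alone, that median moved to 0.17, and the share of calls that were higher moved from 64.2% to 88.9%, and the genes called lower numbered 442. Without asymptomatic 1 or asymptomatic 4 those called lower numbered 975 or 992. A mean level nearer to that of the asymptomatic group than to that of the AIH group was found in the controls for 2483 of the 2796 genes higher in AIH (88.8%) and for 1043 of the 1559 lower ones (66.9%).

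Because the sexes are unequal, the list counts below are also given with sex as a term in the fit, where the effect of sex is estimated from the controls and from the AIH group, and those of the leading lists also for AIH 4 against the 5 asymptomatic males, where the lone AIH male is assumed to vary like the other groups. With sex as a term, 1372 genes were called (9.37%), 1222 higher (8.35%) and 150 lower (1.02%), and 1320 of them were among the 4355 with the same sign. Among males, 812 were called (5.55%), 785 higher (5.36%) and 27 lower (0.184%). AIH 4 lay above all 5 asymptomatic males in 2301 of the 2796 genes called higher and below all of them in 996 of the 1559 called lower, against 3679 and 3218 of all 14638 genes. AIH 4 is itself among the libraries that gave these calls, so the larger shares among called genes are partly built in. Whether the difference between AIH and asymptomatic livers is the same in females and males could not be tested, since no asymptomatic library is from a female. Within the AIH group, sex cannot be told apart from other features of the single animal AIH 4. A call lost with sex as a term is therefore not shown to be an effect of sex. The sex term itself was called for 148 genes, while 3035 of the 4355 calls were lost with it. With the unaligned share as a term instead, 562 of the 14638 genes were called, 544 higher and 18 lower. The list counts of this fit are to be read against those 544 of 14638. Of the lists described below, 16 of 21 mitosis genes, 9 of 10 class II genes and 10 of 18 T cell core genes were called higher. So were 8 of 15 B cell, 9 of 14 plasma cell, 9 of 20 monocyte, 4 of 13 checkpoint and 5 of 28 matrix genes. The mature neutrophil list kept 1 of 14 and the interferon gamma list 1 of 23, the latter near the share over all genes. The type I interferon, bacterial sensing and Kupffer cell lists kept none.

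**Figure D1:**
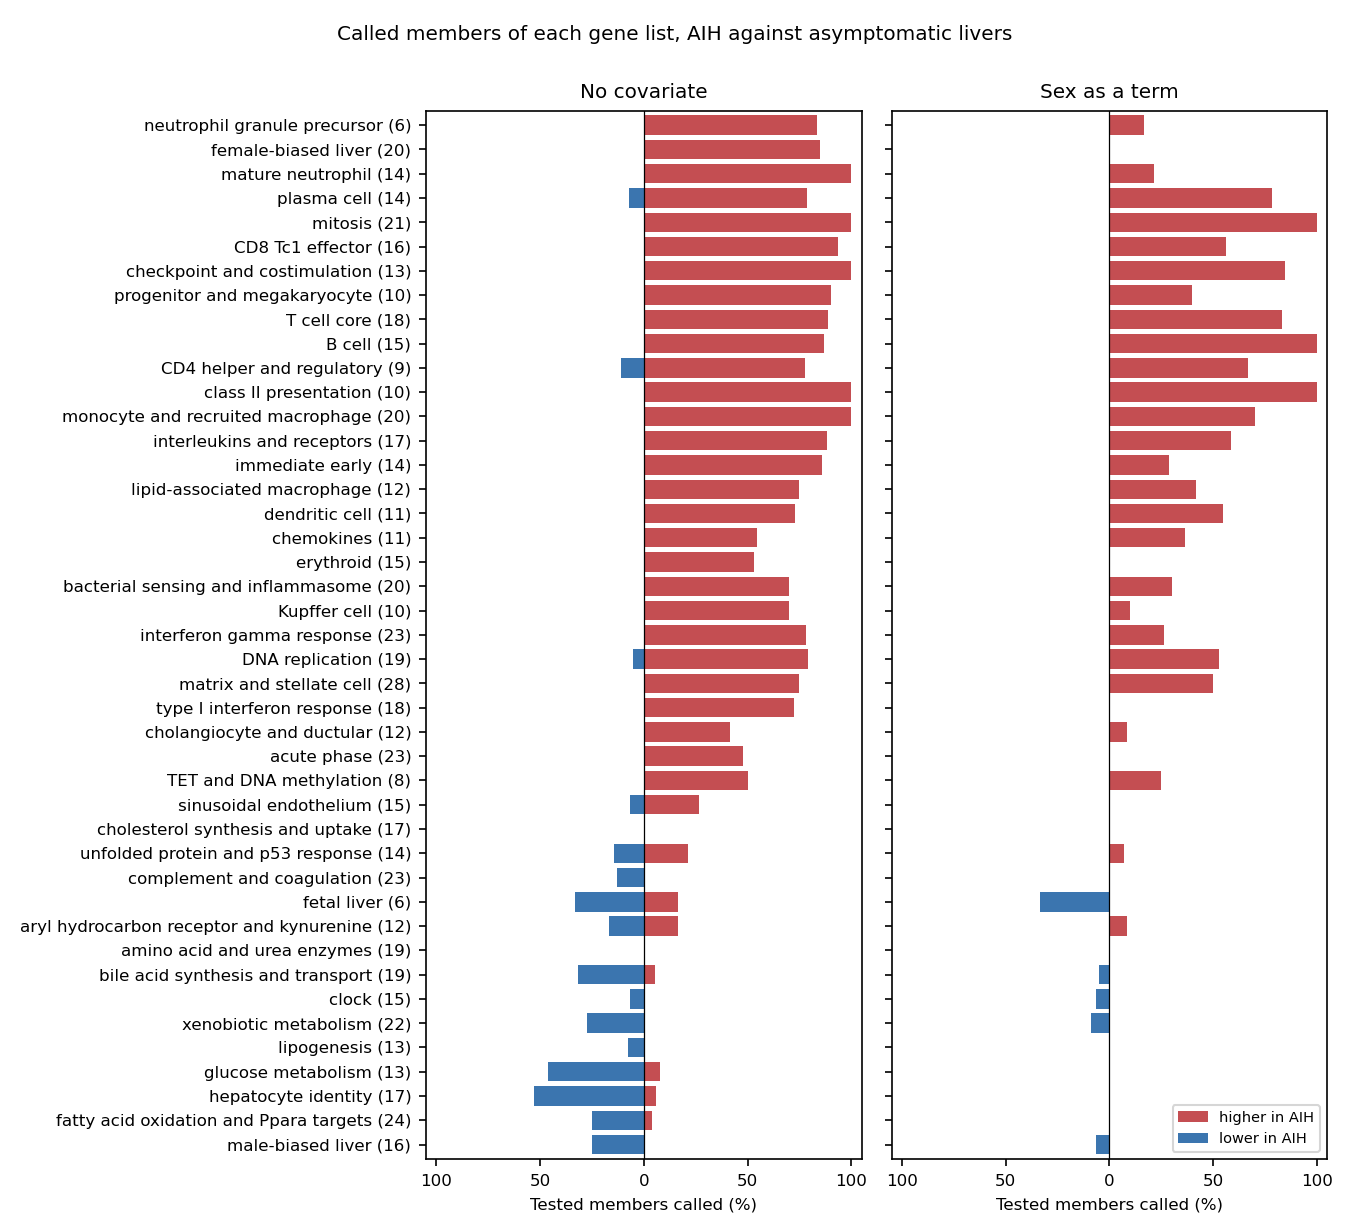
Share of the tested members of each gene list (number tested in brackets) that were called higher (red, right) or lower (blue, left) in AIH, on the x axis in percent, without a covariate (left panel) and with sex as a term (right panel). Mitosis, B cell, T cell and class II lists keep most of their calls in the right panel, while mature neutrophil, acute phase and female-biased lists lose most or all of theirs. With 1 AIH male, sex and that animal cannot be told apart within the AIH group.

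Genes of cell division rose together. All 21 genes of the mitosis list were called higher in AIH, against 19.1% of all genes tested, with a median log2 difference of 3.40 against -0.03 over all genes. In every one of the 21, the lowest AIH library was above the highest asymptomatic library, which held for 12.3% of all genes tested. Of the 21, 12 pass the filter without the AIH libraries, and all 12 are among those called. Mki67, which codes for the Ki-67 protein of dividing cells, was at 42.2, 57.1, 26.6, 42.0 and 49.1 CPM in AIH 1 to 5 and at 1.30, 5.53, 2.45, 1.68 and 2.86 CPM in asymptomatic 1 to 5. Its log2 difference was 3.96 ± 0.35 (SE, adjusted p = 5.5e-06), and all 5 AIH livers, the male included, were well above every asymptomatic liver. Top2a, the topoisomerase that untangles chromosomes before they part, was at 33.1, 32.5, 24.3, 37.0 and 24.2 CPM in AIH and 0.975, 3.18, 2.20, 1.68 and 1.46 CPM in asymptomatic livers, a log2 difference of 3.98 ± 0.28 (SE, adjusted p = 2.3e-06). The cyclin Ccna2 differed by 3.79 ± 0.32 (SE, adjusted p = 4.2e-06) and the spindle motor Kif11 by 2.93 ± 0.26 (SE, adjusted p = 5.5e-06), also with no overlap. With sex as a term all 21 remained called with a median of 3.08, against 8.35% of all genes called higher, and 18 were called higher in the lone male against the asymptomatic males (5.36% of all genes), with a median of 3.13. The summed level of the list was 158 to 269 CPM in AIH, 14.04 to 24.3 CPM in asymptomatic and 12.04 to 22.1 CPM in control livers, so that asymptomatic and control livers overlapped. In bulk tissue a larger share of dividing cells and more of these RNAs per cell cannot be told apart.

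Mitotic genes are commonly controlled through CCAAT boxes and CHR elements in their promoters, and class II genes through a promoter module that includes a CCAAT-like box. The promoters shown are therefore those of members of these lists with small p-values that are present in the RefSeq table (GRCm38.p6, 250 bases before to 50 after the start, first listed start of each gene). Top2a lies on the minus strand with its promoter at chr11:99024140-99024439, Kif11 on the plus strand at chr19:37376132-37376431 and H2-Aa on the minus strand at chr17:34287774-34288073. Capitals mark CCAAT and TTTGAA, read on both strands (ATTGG and TTCAAA).
Top2a: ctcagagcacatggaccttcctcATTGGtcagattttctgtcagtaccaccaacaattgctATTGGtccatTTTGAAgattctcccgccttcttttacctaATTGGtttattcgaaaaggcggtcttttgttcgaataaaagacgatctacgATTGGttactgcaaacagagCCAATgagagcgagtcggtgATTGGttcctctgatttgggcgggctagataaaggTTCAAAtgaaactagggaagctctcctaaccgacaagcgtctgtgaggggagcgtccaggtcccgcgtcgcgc
Kif11: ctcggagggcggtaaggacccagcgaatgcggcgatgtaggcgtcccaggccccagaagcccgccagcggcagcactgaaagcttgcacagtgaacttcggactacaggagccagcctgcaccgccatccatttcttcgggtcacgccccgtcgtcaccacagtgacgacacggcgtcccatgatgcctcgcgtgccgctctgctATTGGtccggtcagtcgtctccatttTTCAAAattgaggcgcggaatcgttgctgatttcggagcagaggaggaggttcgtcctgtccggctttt
H2-Aa: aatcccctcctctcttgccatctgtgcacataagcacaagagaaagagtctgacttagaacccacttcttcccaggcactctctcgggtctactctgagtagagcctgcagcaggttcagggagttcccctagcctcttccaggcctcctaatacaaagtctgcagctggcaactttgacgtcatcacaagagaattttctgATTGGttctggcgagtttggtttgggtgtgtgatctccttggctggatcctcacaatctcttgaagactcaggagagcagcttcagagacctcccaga
The Top2a window holds 6 CCAAT matches and 2 TTTGAA matches, that of Kif11 holds 1 of each, and that of H2-Aa 1 CCAAT match. Of the 21 mitosis genes 16 were in the table, and CCAAT was found in 14 of these (87.5%) against 37.9% of all 27025 promoters. TTTGAA was found in 11 of the 16 (68.8%) against 18.1%, and both in 11 against 7.12%. Of the 10 class II genes 7 were in the table, of which 6 held CCAAT. Its window in H2-DMa, the class II member with the smallest p in the table, held none. These are letter matches in a fixed window and not sites of binding.

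Replication genes moved with the mitotic ones. Of 19 tested, 15 rose and Mcm10 alone fell, with a median log2 difference of 1.38. The helicase subunits Mcm3 and Mcm2 differed by 2.07 ± 0.20 (SE, adjusted p = 7.1e-06) and 1.86 ± 0.23 (SE, adjusted p = 4.6e-05), and Rrm1, a subunit of the enzyme that makes deoxynucleotides, by 1.38 ± 0.13 (SE, adjusted p = 7.1e-06). In the fit with sex 10 rose and none fell. Uhrf1, which guides the maintenance methyltransferase to newly copied DNA, was at 8.02, 10.5, 5.77, 10.7 and 7.12 CPM in AIH and 0.520, 0.706, 0.627, 0.840 and 0.931 CPM in asymptomatic livers, and differed by 3.53 ± 0.38 (SE, adjusted p = 1.7e-05). That methyltransferase, Dnmt1, differed by 0.98 ± 0.17 (SE, adjusted p = 8.3e-04). Both remained called with sex as a term. Of the 8 tested genes of TET and DNA methylation enzymes, Dnmt1, Uhrf1, Dnmt3a and Idh2 rose and none fell, and 2 rose with sex as a term.

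T cell genes rose in AIH, with wide spread among the 5 livers. Of the 18 tested genes of the T cell core, 16 rose and none fell, at a median log2 difference of 3.10. Only 6 of the 18 pass the filter without the AIH libraries, of which 4 rose. Cd3e, a chain of the T cell receptor complex, was at 9.03, 7.24, 2.39, 9.79 and 1.57 CPM in AIH 1 to 5 and 0.195, 0.588, 0.565, 0.388 and 0.466 CPM in asymptomatic 1 to 5. The groups did not overlap, although AIH 3 and AIH 5 were several times lower than AIH 1, 2 and 4, and the log2 difference was 3.74 ± 0.56 (SE, adjusted p = 2.2e-04). Cd3g differed by 4.15 ± 0.59 (SE, adjusted p = 1.6e-04) and the adhesion receptor Cd2 by 3.94 ± 0.57 (SE, adjusted p = 1.7e-04). Of the 18, 15 were higher with sex as a term at a median of 3.22, and among males 14 at 3.92.

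The list for CD8 T cells of the Tc1 type had 16 of 20 genes tested, and 15 of them rose at a median of 3.40. Of these 16, 4 pass the filter without the AIH libraries, and 3 of the 4 rose. Cd8a, the CD8 coreceptor, was at 2.79, 3.06, 1.28, 3.75 and 1.36 CPM in AIH and 0.455, 0.588, 0.314, 0.129 and 0.133 CPM in asymptomatic livers, which did not overlap, and differed by 2.88 ± 0.46 (SE, adjusted p = 3.7e-04). The chemokine Ccl5 was at 13.4, 31.2, 8.45, 12.1 and 9.70 CPM in AIH and 0.195, 0.99996, 1.38, 0.711 and 1.06 CPM in asymptomatic livers, a log2 difference of 4.09 ± 0.47 (SE, adjusted p = 2.7e-05). Nkg7, a protein of cytotoxic granules, differed by 3.81 ± 0.49 (SE, adjusted p = 7.1e-05). Gzmk, a granzyme, had 195 counts over the AIH group and 1 over the asymptomatic group, a pooled ratio of 159.7 with a 95% counting interval from 28.3 to 6341. Granzyme B, Gzmb, and perforin, Prf1, were not called with sex as a term. Gzmb differed by 2.99 ± 0.67 (SE, adjusted p = 0.0042) and then by 1.82 ± 0.82 (SE, adjusted p = 0.2), and Prf1 by 2.42 ± 0.56 (SE, adjusted p = 0.0049) and then by 2.18 ± 0.70 (SE, adjusted p = 0.067). In all, 9 of the 16 remained called with sex as a term and 9 among males. Leaving out AIH 1 or AIH 2 left 10 genes tested, of which 9 were called. The cytokine after which the Tc1 type is defined, interferon gamma (Ifng), held 10 counts in all over the 5 AIH livers and 4 over the asymptomatic ones and was not tested. Of 10 natural killer cell genes 3 passed the filter on low counts, Klrd1 and Klrb1c only through the AIH livers and Klrk1 without them. These 3 were called higher, none of them with sex as a term, and Klrb1c was not called in 5 of the 10 fits that leave out 1 library (adjusted p up to 0.073). The summed level of that list was 5.71 to 16.4 CPM in AIH against 1.53 to 3.33 CPM in asymptomatic livers. Since natural killer cells share much of the Tc1 list, the part of each cell type was not tested.

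Checkpoint and costimulation receptors rose in 13 of 13 tested, at a median of 3.26. Of these, 7, with Pdcd1, Ctla4, Tnfrsf9 and Havcr2 among them, passed the filter only through the AIH livers. Pdcd1, which codes for PD-1, was at 24.7, 6.56, 1.28, 10.7 and 0.758 CPM in AIH 1 to 5 and at 0.0650, 0.235, 0, 0 and 0.0665 CPM in asymptomatic 1 to 5. AIH 5 and AIH 3 were lowest but still above every asymptomatic liver, and the log2 difference was 6.74 ± 1.06 (SE, adjusted p = 3.3e-04). Ctla4, an inhibitory receptor of activated and regulatory T cells, was at 16.1, 1.90, 2.33, 2.35 and 0.556 CPM in AIH against at most 0.133 CPM, and Tnfrsf9, which codes for 4-1BB, at 6.91, 2.48, 2.51, 3.69 and 0.303 CPM against at most 0.0650 CPM. Ctla4 differed by 6.34 ± 1.06 (SE, adjusted p = 5.6e-04), and Tnfrsf9 had 310 counts in AIH against 3, a pooled ratio of 84.6 with a 95% counting interval from 28.7 to 413 (adjusted p = 1.2e-04). Havcr2, which codes for TIM-3, differed by 4.04 ± 0.47 (SE, adjusted p = 2.9e-05), and Cd86, the costimulatory ligand on antigen-presenting cells, by 2.05 ± 0.26 (SE, adjusted p = 5.9e-05). The number higher with sex as a term was 11, at a median of 3.02, and among males 8.

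CD4 and regulatory T cell genes varied widely among AIH livers. Cd4 was at 11.6, 6.85, 2.27, 22.0 and 1.26 CPM in AIH 1 to 5 and 1.82, 1.76, 1.63, 1.29 and 1.86 CPM in asymptomatic 1 to 5. AIH 1, 2 and 4 were high while AIH 5 was below every asymptomatic liver, so the groups overlapped, with a log2 difference of 2.39 ± 0.58 (SE, adjusted p = 0.007). Foxp3, the master regulator of regulatory T cells, was left untested by the filter, with 122, 24, 7, 53 and 5 counts in AIH 1 to 5 and 3, 5, 2, 0 and 1 counts in asymptomatic 1 to 5. Of the 9 tested of 14 list genes, 7 rose and 1 fell. Among the 6 that pass the filter without the AIH libraries, 4 rose. Batf, a factor of effector T cells, differed by 3.62 ± 0.54 (SE, adjusted p = 2.1e-04), Tnfrsf18, which codes for GITR, by 4.13 ± 0.79 (SE, adjusted p = 0.0014) and Ikzf2, which codes for Helios, by 2.78 ± 0.61 (SE, adjusted p = 0.0035). Of the 9 genes tested, 6 remained higher with sex as a term.

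B cell genes rose in 13 of 15 tested, at a median log2 difference of 2.94. Of the 15, 9 pass the filter without the AIH libraries, and all 9 are among the 13. All 15 were called higher with sex as a term, at a median of 3.77, and all 15 among males, at 4.15. Cd22, an inhibitory receptor of B cells, was at 34.5, 12.5, 8.74, 35.6 and 9.49 CPM in AIH and 1.56, 5.18, 3.20, 1.49 and 1.73 CPM in asymptomatic livers. AIH 1 and AIH 4 were the highest, the groups did not overlap, and the log2 difference was 2.93 ± 0.48 (SE, adjusted p = 4.5e-04). Cd37, a tetraspanin of mature B cells, differed by 2.78 ± 0.29 (SE, adjusted p = 1.2e-05). Fcrl5, an Fc receptor-like protein of B cells, was at 11.8, 31.0, 1.57, 5.48 and 29.4 CPM in AIH and 0, 0.294, 0.0627, 0.0646 and 0.133 CPM in asymptomatic livers, a log2 difference of 7.04 ± 0.88 (SE, adjusted p = 5.5e-05). Its order among AIH livers was different, with AIH 2 and AIH 5 highest.

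Genes of plasma cells and antibody rose in 11 of 14 tested (8 of the 11 that pass the filter without the AIH libraries), while Xbp1, a regulator of secretion that hepatocytes express too, fell, and the median was 4.08. Ighg2c, the constant region of IgG2c, was at 77.2, 41.7, 32.1, 132 and 2.73 CPM in AIH and 0.520, 4.06, 0.376, 0.388 and 0.399 CPM in asymptomatic livers. Asymptomatic 2 lay above the other asymptomatic livers and above AIH 5, so that the groups overlapped, with a log2 difference of 5.60 ± 0.98 (SE, adjusted p = 7.5e-04). Igkc, the kappa light chain, was at 787, 264, 529, 1773 and 48.7 CPM in AIH and 7.48, 109, 10.04, 5.11 and 6.99 CPM in asymptomatic livers. The same animals, AIH 5 low and asymptomatic 2 high, made the groups overlap, and Igkc differed by 4.61 ± 1.03 (SE, adjusted p = 0.0041). Ighg1, for IgG1, reached 150.2 CPM in the male AIH 4 against 0.202 CPM in AIH 5. The plasma cell regulators Prdm1 and Irf4 differed by 2.62 ± 0.25 (SE, adjusted p = 7.3e-06) and 3.32 ± 0.57 (SE, adjusted p = 7.0e-04), without overlap. Of 25 immunoglobulin variable segments tested 18 rose and none fell, with a median of 4.43, and 17 were called higher with sex as a term. Segments of this family share sequence, so their single counts are uncertain. In the plasma cell list 11 genes remained higher with sex as a term and 11 among males.

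**Figure D2:**
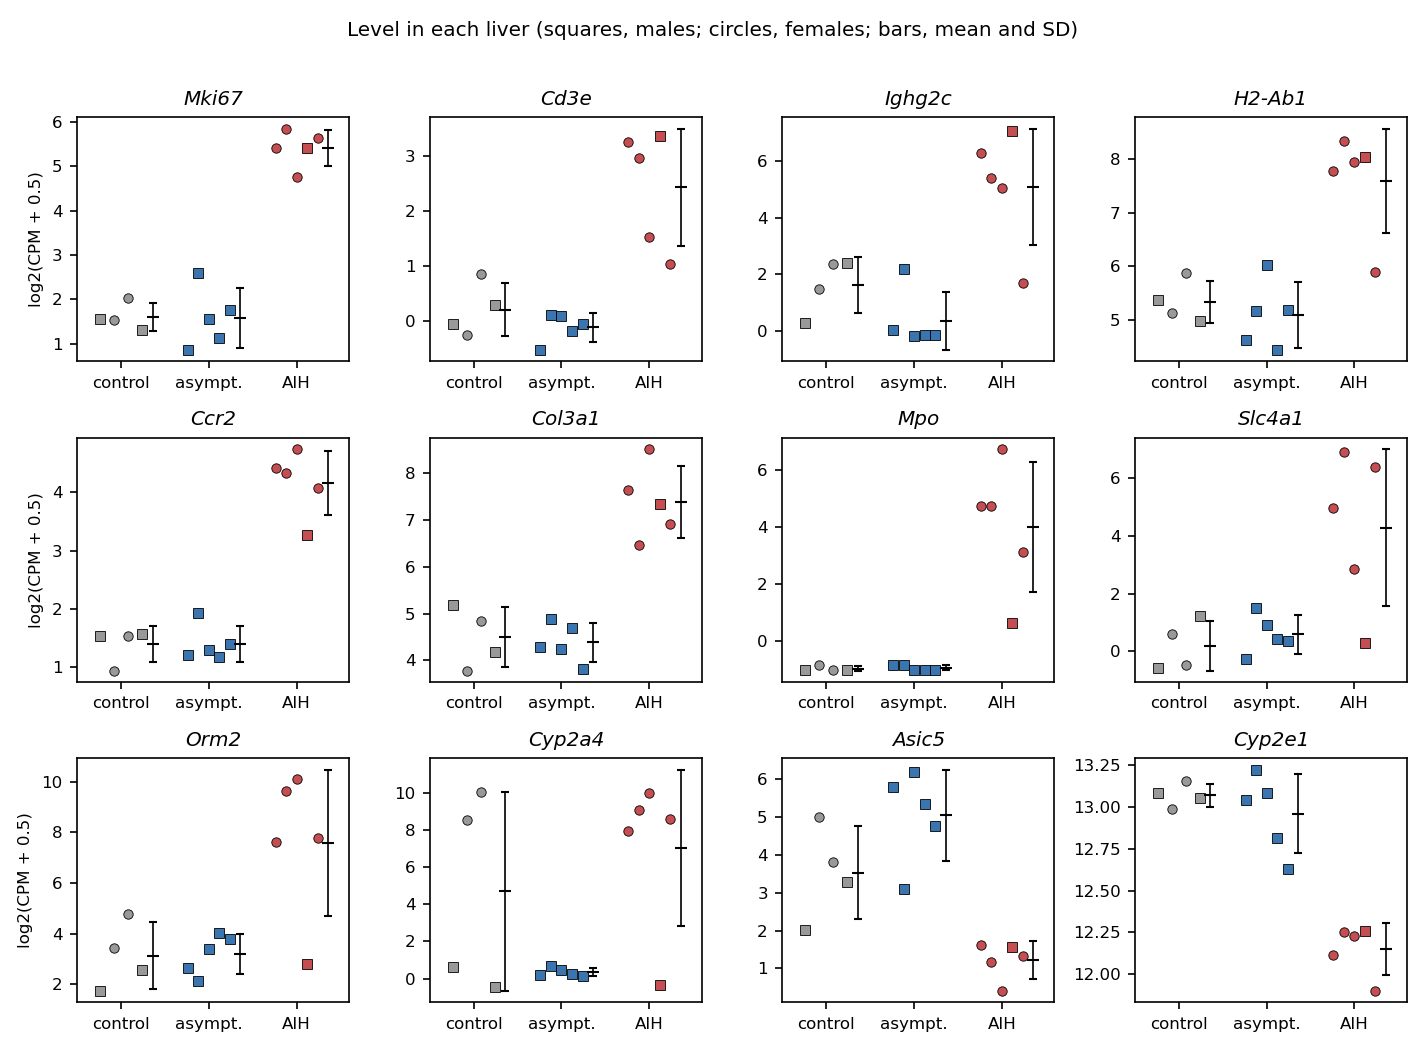
Levels of 12 genes in each control, asymptomatic and AIH liver as log2(CPM + 0.5) on the y axis, with squares for males, circles for females and bars for mean and SD. The red square of AIH 4, the AIH male, lies with the AIH females for Mki67, Cd3e, Ighg2c, H2-Ab1, Col3a1, Asic5 and Cyp2e1, and with the asymptomatic males for Slc4a1, Orm2 and Cyp2a4.

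Antigen presentation through class II rose in 10 of 10 genes at a median of 2.73, and all 10 remained called with sex as a term and 9 among males. H2-Aa, the alpha chain whose promoter is printed above, was at 308, 446, 364, 385 and 88.0 CPM in AIH and 42.0, 50.8, 96.1, 30.2 and 46.8 CPM in asymptomatic livers. H2-Ab1, its beta chain partner, was at 221, 324, 246, 263 and 59.3 CPM and 24.3, 35.4, 64.7, 21.1 and 35.7 CPM. In both genes AIH 5 was lowest and fell below asymptomatic 3, the highest of its group, while the other 4 AIH livers were above all asymptomatic ones. H2-Ab1 differed by 2.62 ± 0.41 (SE, adjusted p = 3.0e-04), the invariant chain Cd74 by 2.49 ± 0.38 (SE, adjusted p = 2.7e-04) and H2-DMa, which helps load peptides, by 2.72 ± 0.39 (SE, adjusted p = 1.5e-04).

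Genes of monocytes and recruited macrophages rose in 20 of 20, at a median of 2.68, against 19.1% of all genes called higher. In none of the 20 did the groups overlap, while 12.3% of all genes were higher without overlap. Ptprc, which codes for CD45 of all white blood cells, was at 117, 131, 72.7, 121 and 144 CPM in AIH and 13.8, 21.6, 18.6, 15.3 and 16.03 CPM in asymptomatic livers, an even rise with a log2 difference of 2.78 ± 0.25 (SE, adjusted p = 5.5e-06). Ccr2, the receptor that brings monocytes out of the marrow, was at 20.7, 19.5, 26.2, 9.18 and 16.3 CPM in AIH and 1.82, 3.29, 1.95, 1.74 and 2.13 CPM in asymptomatic livers. AIH 4 was lowest of its group but above every asymptomatic liver, and the log2 difference was 3.07 ± 0.29 (SE, adjusted p = 6.4e-06). Cybb, the catalytic subunit of the phagocyte oxidase, differed by 2.39 ± 0.22 (SE, adjusted p = 6.4e-06). Of the 20, 14 remained higher with sex as a term, at a median of 1.95, and 10 among males.

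Kupffer cell genes rose by smaller steps. Of 10, 7 were called higher at a median of 1.54, and Marco, a scavenger receptor, was the one that remained with sex as a term. None was called lower, but log2 differences ranged from -1.62 to 3.57. Under limma-voom, with only the 2 groups and without AIH 4, 1 member was called lower. Marco was at 212, 367, 104, 100.3 and 400.5 CPM in AIH and 11.4, 10.4, 17.9, 36.2 and 23.6 CPM in asymptomatic livers, and differed by 3.57 ± 0.51 (SE, adjusted p = 1.6e-04). Clec4f, a lectin confined to resident Kupffer cells in mice, was at 469, 852, 353, 220.4 and 679.7 CPM in AIH and 164, 155, 212, 186 and 200.4 CPM in asymptomatic livers. AIH 4 was only just above the highest asymptomatic liver, and the log2 difference was 1.49 ± 0.31 (SE, adjusted p = 0.0028) without and 0.57 ± 0.32 (SE, adjusted p = 0.3) with sex as a term. Timd4, a receptor for dying cells on long-lived Kupffer cells, differed by 1.73 ± 0.34 (SE, adjusted p = 0.0018) and 0.77 ± 0.33 (SE, adjusted p = 0.18). Genes of lipid-associated macrophages rose in 9 of 12, 5 of them with sex as a term. Gpnmb, a membrane glycoprotein of these cells, was at 4.47, 1.90, 3.09, 5.43 and 2.47 CPM in AIH and 0.130, 0.588, 0.125, 0.323 and 0.333 CPM in asymptomatic livers and differed by 3.49 ± 0.43 (SE, adjusted p = 4.4e-05), and the lectin Lgals3 by 3.11 ± 0.44 (SE, adjusted p = 1.4e-04). Genes of dendritic cells rose in 8 of 11, and 6 with sex as a term. Of the 7 that pass the filter without the AIH libraries 4 rose, among them Cd83, a surface protein of mature dendritic cells and activated B cells, by 3.60 ± 0.35 (SE, adjusted p = 8.2e-06). Gdf3, a TGF-beta family member, and Sh2d1b1, an adaptor of killer cells and myeloid cells, were among the largest rises that held with sex as a term, at 5.86 ± 0.66 (SE, adjusted p = 2.2e-05) and 6.25 ± 0.94 (SE, adjusted p = 2.2e-04). Both were chosen by the size of the rise. They had 12 and 4 counts over the asymptomatic group, too few to pass the filter through those livers, against 929 and 436 in AIH.

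Of the chemokines 11 of 18 were tested, of which 6 rose: Ccl6, Ccl8, Cxcl13, Cxcl14, Cxcl16 and Cx3cl1. Of these, 4 remained with sex as a term: Ccl8, Cxcl13, Cxcl16 and Cx3cl1. Ccl8 was at 5.62, 7.24, 3.67, 7.11 and 0.202 CPM in AIH 1 to 5 and at most 0.130 CPM in asymptomatic livers. AIH 5 stood far below the other 4 AIH livers, and the log2 difference was 6.08 ± 0.86 (SE, adjusted p = 1.4e-04). Ccl8 passed the filter only through the AIH livers, with 460 counts there and 5 in the asymptomatic group. It was tested in only 6 of the 10 fits that leave out 1 library. Of the 10 chemokines that pass the filter without the AIH libraries, 5 rose. Cxcl13, which draws B cells, was at 60.5, 161, 8.39, 42.2 and 29.6 CPM in AIH and 1.82, 4.88, 5.58, 2.91 and 3.06 CPM in asymptomatic livers, with AIH 3 lowest, and differed by 4.04 ± 0.67 (SE, adjusted p = 5.1e-04). Cxcl16, which binds the receptor CXCR6 of liver T cells, differed by 1.84 ± 0.22 (SE, adjusted p = 4.1e-05), and Cxcr6 itself was not called. Of interleukins and their receptors 15 of 17 rose and 10 remained with sex as a term, among them Il2rg, the shared chain of the interleukin-2 receptor family, by 3.03 ± 0.41 (SE, adjusted p = 1.1e-04), and Il10ra by 2.37 ± 0.27 (SE, adjusted p = 2.5e-05). Il1b, a macrophage cytokine, was at 8.74, 129, 8.39, 13.8 and 34.8 CPM in AIH and 2.601, 3.18, 1.88, 3.23 and 2.13 CPM in asymptomatic livers. AIH 2 was far above the others, and its log2 difference of 3.90 ± 0.78 (SE, adjusted p = 0.0019) became 2.44 ± 0.84 (SE, adjusted p = 0.089) with sex as a term. Tumour necrosis factor, Tnf, differed by 1.87 ± 0.52 (SE, adjusted p = 0.015) and with sex as a term by 1.95 ± 0.78 (SE, adjusted p = 0.14).

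Interferon response genes rose, but most calls did not hold with sex as a term. Of 23 genes of the response to interferon gamma 18 rose, at a median of 1.45, and 6 with sex as a term: Irf8, Gbp2, Gbp5, Gbp9, Tap1 and Tap2. Irf8, a regulator of myeloid and B cells, was at 62.0, 41.8, 35.0, 42.4 and 29.0 CPM in AIH and 6.50, 9.35, 8.35, 8.98 and 9.45 CPM in asymptomatic livers without overlap, and differed by 2.30 ± 0.21 (SE, adjusted p = 5.5e-06). Tap1, the peptide transporter for class I loading, differed by 1.19 ± 0.18 (SE, adjusted p = 2.3e-04). Of 18 genes of the type I interferon response 13 rose at a median of 1.32 and none was called with sex as a term. Oas1a, an antiviral sensor, differed by 2.20 ± 0.43 (SE, adjusted p = 0.0016) and with sex as a term by 1.43 ± 0.53 (SE, adjusted p = 0.11). Of 20 genes for the sensing of bacteria and for the inflammasome 14 rose and 6 remained with sex as a term: Tlr1, Tlr7, Tlr9, Casp4, Pycard and Nlrc4. Pycard, the inflammasome adaptor, was at 19.98, 40.5, 9.15, 8.28 and 14.7 CPM in AIH and 1.495, 1.29, 2.26, 1.16 and 0.931 CPM in asymptomatic livers, without overlap, and differed by 3.69 ± 0.44 (SE, adjusted p = 4.0e-05). Immediate early genes rose in 12 of 14, among them Myc by 2.13 ± 0.20 (SE, adjusted p = 7.2e-06) and Fos by 3.71 ± 0.49 (SE, adjusted p = 8.6e-05), and 4 remained with sex as a term.

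Matrix and stellate cell genes rose in 21 of 28, at a median of 1.37, with 14 remaining with sex as a term at a median of 1.38 and 6 among males. Col1a1, the alpha 1 chain of type I collagen, was at 49.0, 17.4, 82.7, 45.2 and 20.4 CPM in AIH and 5.33, 10.2, 1.76, 5.56 and 4.59 CPM in asymptomatic livers. AIH 3 was highest and AIH 2 lowest of the group, all 5 were above every asymptomatic liver, and the log2 difference was 2.96 ± 0.46 (SE, adjusted p = 3.0e-04). Col3a1 was at 199, 88.0, 363, 161 and 120.2 CPM in AIH and 18.99, 28.8, 18.4, 25.5 and 13.6 CPM in asymptomatic livers with the same order at the top, and differed by 3.14 ± 0.39 (SE, adjusted p = 4.9e-05). Vim, the intermediate filament vimentin of stellate cells and white blood cells, differed by 2.70 ± 0.24 (SE, adjusted p = 5.7e-06). Acta2 and Tagln, contractile genes of activated stellate cells, were not called, at log2 differences of 0.92 (adjusted p = 0.2) and 0.75 (adjusted p = 0.2). Of 12 genes of bile duct cells 5 rose (Krt7, Cldn7, Cd24a, Prom1 and Muc1), with Cd24a, which white blood cells also express, by 4.05 ± 0.47 (SE, adjusted p = 2.7e-05) and the only one with sex as a term. Leaving out single libraries gave as few as 2 calls. Muc1 was not called in 4 of the 10 fits that leave out 1 library. The list for sinusoidal endothelium was near the background, with 4 of 15 genes called higher (Fcgr2b, Pecam1, Cdh5 and Mrc1) and Gata4 lower, against 19.1% and 10.7% of all genes, at a median of 0.15. None was called with sex as a term, 6 were higher and none lower under library totals alone, and Mrc1 was not called in 4 of the 10 fits that leave out 1 library (adjusted p up to 0.060).

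**Figure D3:**
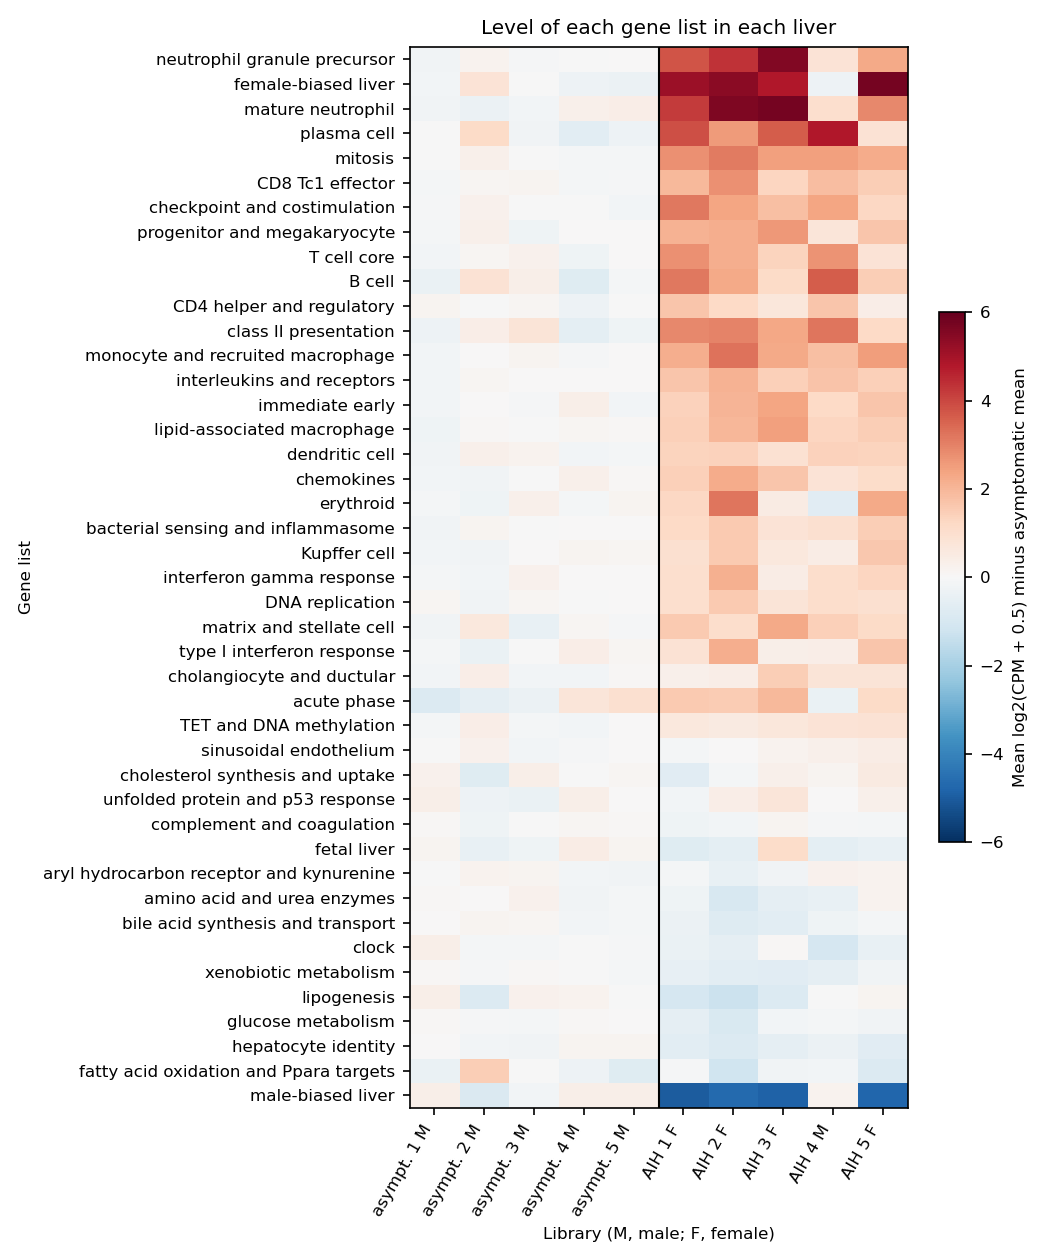
Mean log2(CPM + 0.5) over the tested members of each gene list (rows, lists with at least 5 tested members, ordered by median log2 difference) in each liver (columns), minus the mean of the 5 asymptomatic livers (colour scale from -6 to 6). AIH 4 is pale for the neutrophil and sex-biased lists, where the AIH females are dark, and is the lowest AIH liver for the erythroid and acute phase lists, where AIH 3 is itself pale in the former. It is the highest for the plasma cell and B cell lists.

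Granulocyte genes rose in AIH, and the AIH male had the lowest level of the group in their lists. All 14 genes of mature neutrophils rose, at a median log2 difference of 6.18, but 3 with sex as a term (Ltf, Ngp and Itgam) at a median of 2.98, and 2 among males. Of the 14, 7 pass the filter without the AIH libraries, and AIH 4 lay above all asymptomatic livers in 11. Ltf, the granule protein lactoferrin, was at 25.5, 103, 102, 1.85 and 12.8 CPM in AIH and at most 0.133 CPM in asymptomatic livers. AIH 4, the male, was lowest in the group though above all asymptomatic livers, and AIH 2 and AIH 3 were highest. Ltf differed by 9.72 ± 1.19 (SE, adjusted p = 4.4e-05), by 5.65 ± 1.38 (SE, adjusted p = 0.018) with sex as a term and by 5.001 ± 1.21 (SE, adjusted p = 0.026) among males. Itgam, the integrin CD11b, was at 6.91, 24.8, 22.3, 2.69 and 11.6 CPM and 0.715, 0.823, 0.941, 1.03 and 0.665 CPM and differed by 4.02 ± 0.56 (SE, adjusted p = 1.3e-04). Of the granule proteins made by neutrophil precursors 6 of 9 genes were tested, and all 6 passed the filter only through the AIH livers, so the number called (5: Mpo, Elane, Prtn3, Ctsg and Ms4a3) is no measure of the list. Mpo, myeloperoxidase, was at 26.1, 26.1, 105.1, 1.06 and 8.23 CPM in AIH, with 2 counts in the whole asymptomatic group against 3065, a pooled ratio of 1255 with a 95% counting interval from 347 to 10369.6. Ctsg, cathepsin G, had no count in any asymptomatic liver and 543 in AIH, at least 148-fold higher against a floor of 3 counts over the group. Mpo alone remained with sex as a term, and Prtn3 then differed by 2.13 ± 1.61 (SE, adjusted p = 0.46) and among males by -0.13 ± 1.17 (SE, adjusted p = 0.97). Leaving out any 1 of the 4 AIH females left 3 of the 6 tested, of which 2 were called, Elane and Ctsg being among those no longer tested. Of 14 genes of eosinophils, basophils and mast cells only 4 were tested, of which 3 rose, none with sex as a term. Among them Prg2, the major basic protein of eosinophils, was at 6.39, 24.1, 969.7, 5.26 and 4.09 CPM in AIH, with AIH 3 far above the rest.

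Red cell genes varied by animal, with AIH 4 and then AIH 3 lowest of the AIH group. Of 15 erythroid genes 8 rose, at a median of 1.73, none with sex as a term. Leaving out any 1 AIH female left 12 tested, without Gata1 and Rhag, of which 4 or 5 were called. Slc4a1, the anion exchanger of red cells, was at 30.9, 121, 6.76, 0.727 and 83.5 CPM in AIH and 0.325, 2.35, 1.38, 0.840 and 0.798 CPM in asymptomatic livers. AIH 4 lay within the asymptomatic range, with a log2 difference of 5.39 ± 1.07 (SE, adjusted p = 0.0019) over all mice and -0.66 ± 1.52 (SE, adjusted p = 0.89) among males. Rhag, a red cell membrane protein, had 527 counts in AIH, none of them in AIH 4. Genes of blood progenitors and megakaryocytes rose in 9 of 10 tested (4 of the 5 that pass the filter without the AIH libraries), and Cd34, Pf4, Myb and Flt3 remained with sex as a term. Myb, a regulator of blood progenitors, was at 2.50, 2.19, 7.11, 1.57 and 1.67 CPM in AIH and 0, 0, 0.188, 0 and 0.0665 CPM in asymptomatic livers, without overlap, and differed by 5.70 ± 0.74 (SE, adjusted p = 7.3e-05) and by 4.81 ± 0.91 (SE, adjusted p = 0.0037) with sex as a term. Ppbp, a platelet chemokine, was at 23.3, 27.3, 22.8, 0.448 and 14.4 CPM in AIH and 0.195, 0.647, 0.0627, 0.711 and 0.599 CPM in asymptomatic livers. AIH 4 lay within the asymptomatic range, and with sex as a term the log2 difference of 5.29 ± 0.88 (SE, adjusted p = 5.0e-04) became 1.41 ± 1.05 (SE, adjusted p = 0.45).

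Acute phase proteins, which hepatocytes secrete under cytokine stimulation, rose in 11 of 23, at a median of 1.02, and none was called with sex as a term, where the median was -0.15. Orm2, an orosomucoid, was at 194, 791, 1108, 6.55 and 219 CPM in AIH and 5.79, 3.88, 10.04, 15.6 and 13.4 CPM in asymptomatic livers. The 4 AIH females were over 10 times any asymptomatic liver while AIH 4 lay within the asymptomatic range, and the log2 difference was 5.57 ± 1.04 (SE, adjusted p = 0.0012) over all mice and -0.57 ± 0.96 (SE, adjusted p = 0.83) among males. Saa1, a serum amyloid, was at 1404, 875, 1485, 67.0 and 803 CPM in AIH and 53.3, 42.4, 92.7, 367 and 435 CPM in asymptomatic livers. Haptoglobin, Hp, was at 6716, 8146, 11247, 3085 and 4331 CPM and 2882, 3219, 3218, 4126 and 3227 CPM, and AIH 4 was again within the asymptomatic range in both genes. Of the 10 fits that leave out 1 library, 7 gave no call for Saa1 (adjusted p up to 0.098) and 4 none for Hp (up to 0.079). Orm3 and Apcs differed by 4.29 ± 1.03 (SE, adjusted p = 0.0064) and 2.96 ± 0.63 (SE, adjusted p = 0.0029) and among males by -1.57 ± 0.91 (SE, adjusted p = 0.46) and -0.14 ± 0.67 (SE, adjusted p = 0.95). Without AIH 2, AIH 3, asymptomatic 1, asymptomatic 3 or asymptomatic 4 the list had 5 to 7 calls.

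Genes known to differ between male and female mouse liver marked the imbalance of sexes. Of 20 female-biased genes 17 were called higher in AIH (9 of the 12 that pass the filter without the AIH libraries), at a median of 6.74, and with sex as a term none was called and the median was -1.001. Cyp2a4, a steroid hydroxylase, was at 242, 529, 1019, 0.280 and 386 CPM in AIH 1 to 5 and 0.650, 1.118, 0.878, 0.711 and 0.599 CPM in asymptomatic 1 to 5, and at 1.05, 375, 1053 and 0.223 CPM in controls 1 to 4, of which 2 and 3 are females. It was high in every female and under 2 CPM in every male, whatever the phenotype. Sult2a1, a sulfotransferase of bile acids and steroids, and Cyp3a44 followed the same order, with log2 differences of 8.93 ± 2.102 (SE, adjusted p = 0.0056) and 8.81 ± 1.94 (SE, adjusted p = 0.0038) that became -1.73 ± 0.63 (SE, adjusted p = 0.11) and -0.18 ± 0.62 (SE, adjusted p = 0.89). Of 16 male-biased genes 4 were called lower: Cyp7b1, Ugt2b1, Ugt2b38 and Nudt7. None of these was called with sex as a term, where Sult5a1 was the one gene called lower. Nudt7 was not called in 8 and Cyp7b1 in 4 of the 10 fits that leave out 1 library (adjusted p up to 0.093 and 0.059). Cyp2d9 was at 14.7, 6.61, 4.49, 951 and 11.4 CPM in AIH and 1261, 1113, 1120.4, 1172 and 1094 CPM in asymptomatic livers, low in every AIH female and in the AIH male near the asymptomatic level. It was not called, at -2.54 ± 1.43 (SE, adjusted p = 0.19). Without AIH 4, 14 of the 16 male-biased genes were called lower. Cyp7b1, the oxysterol hydroxylase of the acidic bile acid pathway, was at 12.3, 27.2, 15.1, 321 and 30.8 CPM in AIH and 871, 124, 423, 1057 and 879 CPM in asymptomatic livers, with asymptomatic 2 well below the rest of its group.

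**Figure D4:**
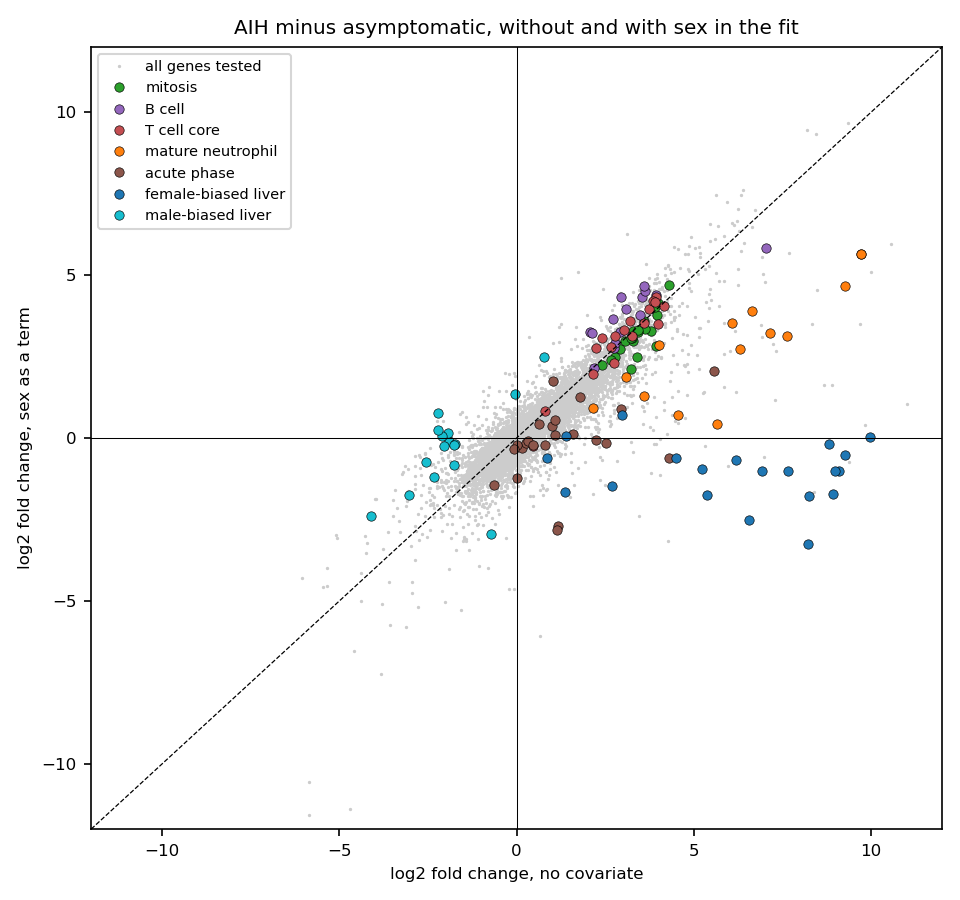
Log2 difference of AIH minus asymptomatic livers for each gene tested (grey) and 7 gene lists (colours), without a covariate (x axis) and with sex as a term (y axis), the dashed line marking equality. Mitosis, T cell and B cell genes lie along the line, mature neutrophil and acute phase genes below it, and female-biased genes near or under 0 on the y axis.

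Hepatocyte genes were lower in AIH by smaller steps. Of 17 identity genes 9 fell, among them Ttr, Apob, Serpina1c, Hnf4a, Cebpa, Foxa1, Foxa2 and Prox1, Trf rose, and the median log2 difference was -0.70. None was called with sex as a term, 5 fell when library totals alone set the scale, and 5 fell without AIH 3. Hnf4a, the nuclear receptor that maintains hepatocyte identity, was at 599, 425, 627, 492 and 519 CPM in AIH and 1019, 1023, 591, 1433 and 1294 CPM in asymptomatic livers. Asymptomatic 3 lay within the AIH range, and the log2 difference was -1.01 ± 0.23 (SE, adjusted p = 0.0043) and with sex as a term -1.08 ± 0.33 (SE, adjusted p = 0.052). Alb was not called, at -0.21 ± 0.21 (SE, adjusted p = 0.48). In bulk tissue a smaller share of hepatocytes and less of these RNAs per hepatocyte cannot be told apart.

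Metabolic genes were lower by similar steps. Cyp2e1, the cytochrome that oxidises ethanol and many drugs, was at 4435, 4881, 4806, 4904 and 3813 CPM in AIH and 8445, 9564, 8673, 7205 and 6336 CPM in asymptomatic livers. The groups did not overlap, controls were at 8116 to 9109 CPM, and the log2 difference was -0.82 ± 0.15 (SE, adjusted p = 0.001) and with sex as a term -0.77 ± 0.21 (SE, adjusted p = 0.032). Of 22 genes of xenobiotic metabolism 6 fell and none rose, and Cyp2e1 and Nr1i3 were lower with sex as a term. Of 24 genes of fatty acid oxidation 6 fell, among them Fabp1, the fatty acid carrier, by -1.14 ± 0.22 (SE, adjusted p = 0.0017), Acsl1 by -1.75 ± 0.42 (SE, adjusted p = 0.0066) and the regulator Ppara by -1.09 ± 0.32 (SE, adjusted p = 0.018), while Pdk4 rose, and none was called with sex as a term. Under library totals alone 3 fell and 2 rose. Cyp4a14, a target of Ppara induced by fasting, was at 698, 51.3, 154, 68.7 and 119 CPM in AIH and 9.56, 7851, 54.4, 30.6 and 4.06 CPM in asymptomatic livers, with asymptomatic 2 far above all other livers but controls 2 and 4. It was not called, at -2.87 ± 1.71 (SE, adjusted p = 0.22), and without asymptomatic 2 its log2 difference was 3.15 (adjusted p = 0.048). Those controls and asymptomatic 2 were also the lowest of their groups in the log2 ratio of Dbp to Arntl. AIH 4 was the lowest of its group in that ratio too, with Cyp4a14 at 68.7 CPM, and the part of harvest time was not tested. Of 13 genes of glucose metabolism 6 fell and Igfbp1 rose, at a median of -0.63, with none called with sex as a term and 3 falling under library totals alone. Gys2, the liver glycogen synthase, differed by -1.17 ± 0.22 (SE, adjusted p = 0.0012). Of 19 genes of bile acid synthesis and transport 6 fell and the efflux pump Abcc4 rose, by 1.46 ± 0.34 (SE, adjusted p = 0.0055), and Hsd3b7 alone was lower with sex as a term. That list too had 3 falls under library totals alone, and xenobiotic metabolism had 4. The rate-limiting enzyme Cyp7a1 overlapped widely between the groups and differed by 7.7e-03 ± 0.62 (SE, adjusted p = 0.99).

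The other pathways are to be read against the 19.1% of all genes called higher and the 10.7% called lower. Of 12 genes of the aryl hydrocarbon receptor and kynurenine pathways, Tiparp and Cyp1b1 rose and Tdo2 and Kmo fell, which is near those shares, and Cyp1b1 alone was called with sex as a term. Cyp1a1, the classical target of that receptor, was at 0.0960, 0.875, 1.28, 1.45 and 0.909 CPM in AIH and 0.845, 1.41, 1.32, 1.10 and 1.198 CPM in asymptomatic livers and differed by -0.36 ± 0.46 (SE, adjusted p = 0.59). Cyp1b1, a target that stellate and immune cells also express, differed by 2.23 ± 0.65 (SE, adjusted p = 0.018) and with sex as a term by 2.90 ± 0.71 (SE, adjusted p = 0.018). It was not called without AIH 4 (adjusted p = 0.051). No gene was called of 19 for amino acid and urea enzymes or of 17 for cholesterol synthesis, though leaving out AIH 5 gave 7 lower calls in the first. Of 23 complement and coagulation genes 3 were called lower (C8b, F5 and Proc), at a median of -0.052, and under library totals alone 3 were called higher and none lower, so the direction of that list turns with the scaling. None was called with sex as a term, and of the 10 fits that leave out 1 library 7 gave no call for C8b and F5 and 4 none for Proc (adjusted p up to 0.098). In the unfolded protein and p53 list Pmaip1, Chac1 and Bax of 14 genes rose and Hspa5 and Dnajb9 fell, again near the shares over all genes, and Pmaip1 alone was called with sex as a term. Pmaip1, which codes for the cell death protein NOXA, was at 6.53, 23.7, 10.5, 5.88 and 17.5 CPM in AIH and 0.910, 1.94, 0.753, 1.49 and 1.73 CPM in asymptomatic livers, without overlap, and differed by 3.23 ± 0.42 (SE, adjusted p = 6.9e-05).

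Among the falls that held with sex as a term, the 10 largest without overlap between groups included Asic5, Tsku, Ugt1a10, Slc17a3, Akr1c14, Tcaim, Phyhd1, Dnaja1 and Gorasp1. Asic5, a bile acid-sensitive ion channel (GRCm38 chr3:81982290-82021233, plus strand), was at 2.59, 1.75, 0.816, 2.46 and 2.02 CPM in AIH and 54.7, 8.06, 72.8, 40.3 and 26.8 CPM in asymptomatic livers, and at 3.57 to 31.1 CPM in controls. Every AIH liver was below every asymptomatic and every control liver, the log2 difference was -4.38 ± 0.63 (SE, adjusted p = 1.7e-04), and with sex as a term it was -5.00 ± 0.83 (SE, adjusted p = 0.0016). Tsku, a secreted protein that hepatocytes release (GRCm38 chr7:98350668-98361328, minus strand), was at 53.9, 26.1, 25.6, 18.97 and 8.69 CPM in AIH and 238, 58.0, 65.8, 314 and 274 CPM in asymptomatic livers, with asymptomatic 2 and 3 low, and differed by -2.83 ± 0.55 (SE, adjusted p = 0.0017). Dnaja1, a co-chaperone, was at 98.7, 93.5, 58.9, 76.7 and 93.7 CPM in AIH and 237, 136, 109.8, 279 and 365 CPM in asymptomatic livers and differed by -1.42 ± 0.28 (SE, adjusted p = 0.0017). The other 7 had log2 differences from -2.77 to -1.32, and none of the 10 was called among males.

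Several genes that were lower in AIH were high in asymptomatic livers other than asymptomatic 2 and low in both AIH and control livers. Where such a gene passes the filter on low counts only through the asymptomatic livers, it had to be high there to be tested. Meg3, an imprinted noncoding RNA (GRCm38 chr12:109541001-109571726, plus strand), was at 0.192, 0.0972, 0.408, 0.168 and 0.354 CPM in AIH, 2.73, 0.235, 1.76, 6.53 and 3.93 CPM in asymptomatic 1 to 5 and 0 to 0.272 CPM in controls. Its neighbour Rian was at 0.144, 0.0972, 0.583, 0.112 and 0.152 CPM, 2.47, 0.412, 1.57, 7.04 and 3.79 CPM and 0 to 0.545 CPM. In both, asymptomatic 2 lay within the AIH range, and the log2 differences were -3.61 ± 0.72 (SE, adjusted p = 0.002) and -3.80 ± 0.79 (SE, adjusted p = 0.0027). Obp2a, a lipocalin, was at 6.37, 0.118, 5.02, 3.30 and 4.92 CPM in asymptomatic 1 to 5 and at most 0.168 CPM in AIH and 0.335 CPM in controls. Ces2b, Mup-ps20, Serpina4-ps1 and Moxd1 were likewise called lower in AIH, and asymptomatic 2 was lowest of its group in each. None of these 4 was called with sex as a term, nor was Obp2a, while Meg3 and Rian were. Moxd1 was at 6.76, 0.0588, 0.753, 6.01 and 137 CPM in asymptomatic livers and at 4.48 CPM in the AIH male. It was not called in 5 of the 10 fits that leave out 1 library, and Serpina4-ps1 in 3 (adjusted p up to 0.32 and 0.057). Meg3, Rian, Obp2a, Ces2b and Mup-ps20 were tested in only 6 of these 10 fits and did not pass the filter in the others. Their calls in those 6 fits are therefore no check on the livers that carried them through the filter. Mup-ps20 belongs to a family of near-identical copies and Serpina4-ps1 is a pseudogene, so their counts are uncertain. The share of unaligned reads followed these genes in part. It was over 7 percent in asymptomatic 1, 3, 4 and 5, 6.54 percent in AIH 4 and under 5 percent in all other libraries. In AIH 4 Meg3, Rian and Obp2a were as low as in the other AIH livers, while Moxd1 was not. The share also differed between the groups, and with it as a term 562 of all genes were called, against 4355 without. The cause was not tested. With that share as a term none of Meg3, Rian, Obp2a, Ces2b, Mup-ps20 and Serpina4-ps1 was called, at log2 differences from -2.19 (Obp2a, adjusted p = 0.51) to -0.71 (Serpina4-ps1, adjusted p = 0.88), and Moxd1 was higher in AIH, by 5.04 (adjusted p = 0.024).

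H19 and Igfbp1 were far higher in AIH 3 than in any other AIH or asymptomatic liver. H19, an imprinted fetal RNA, was at 0.672, 2.48, 75.9, 0.280 and 1.67 CPM in AIH and at most 0.388 CPM in asymptomatic livers, and Igfbp1 at 129, 70.9, 1751, 232 and 344 CPM and 12.3, 85.8, 12.1, 30.7 and 18.7 CPM. AIH 3 was highest in both. Across the lists the AIH livers thus had different leading features: AIH 3 was highest in Prg2, Mpo, Col1a1 and H19, AIH 2 in Slc4a1, Il1b and Cxcl13, AIH 1 in Pdcd1, Ctla4 and Foxp3 counts, the male AIH 4 in Cd4, Ighg2c, Igkc and Irf4, and AIH 5 was lowest in Cd4, Igkc, H2-Ab1 and Ccl8 while its Mki67, at 49.1 CPM, was above those of AIH 1, 3 and 4.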

How the data were processed

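Whole liver RNA of 14 mice was sequenced. The deposited files hold raw read counts per gene, 1 file a library, made by the authors. Per the submitters' processing notes HTSeq 0.9.0, HISAT2 2.1.0, cutadapt 1.12 and FastQC 0.11.5 were used with R 4.0 and edgeR, and the builds named are GRCm38 and GRCh38. Their roles, the annotation release and the strand setting are not given in the sources used here, so reads from overlapping or antisense genes cannot be told apart. The 5 HTSeq summary rows were left out. They held reads without a gene (2.29 to 3.29 percent of all rows' counts), ambiguous reads (1.38 to 3.05 percent), unaligned reads (3.23 to 9.27 percent) and reads aligned in several places (28.8 to 37.0 percent). Gene names and positions came from GENCODE M21 (GRCm38), which held 51633 of the 51912 gene IDs.

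Counts were tested with edgeR 4.0.16 (R 4.3.3): filterByExpr, TMM scaling and the two-sided quasi-likelihood F-test over all 14 libraries with 1 mean per group, contrasting AIH with asymptomatic. A call is a Benjamini-Hochberg adjusted p under 0.05 over 14638 genes. CPM use the library totals of the gene rows scaled by the TMM factors, and errors of log2 differences are standard errors. Replicates are numbered in accession order, and no label says how the mice relate, so p-values measure only the spread between these samples. No pair of libraries agreed within sampling noise. Tested on simulated counts for this comparison (13787 genes), 31 of 100 genes changed 2-fold and 83 of 100 changed 4-fold were called, with 1 of 13587 unchanged genes. The simulated libraries shared the asymptomatic mean levels but for 200 changed genes and held no difference of sex. These rates need therefore not hold for the data. Counting intervals are exact and cover counting error only.

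The members and the 45 gene lists were chosen with earlier results of these data known. Named are 11 genes fixed by name, the 10 largest rises and falls that held with sex as a term, did not overlap between groups and had a mean of at least 1 CPM, the 3 members of each list with the smallest p among those called, and the 5 largest rises and falls lost with sex as a term. A further 14 (Igkc, Ighg1, Foxp3, Saa1, Hp, Clec4f, Timd4, Il1b, Ppara, Cyp4a14, Cyp2d9, Slco1a1, Alb and H2-Aa), and list members named without a full set of values, were chosen after their values were seen. Some genes that these rules name are not reported here. The sexes come from the counts of Xist and of 4 genes on the Y chromosome. Alternatives were other scalings, filters, DESeq2 1.42.0, limma 3.58.1, covariates and each library left out in turn.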

Additional observations from a re-analysis of the deposited data

Results flagged for a closer look

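Each named gene and each gene list was checked in both groups of 5 for a library whose gap to the nearest other library, as a share of the group's range on the log2(CPM + 0.5) scale, was above 0.71. Chance marks about 1 group in 20, and 36 of 386 groups were marked, many of them over genes that move together.

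AIH 4, the male, was lowest of the AIH group in Ppbp (share of the range 0.816), Orm3 (0.889), Saa1 (0.801), Cyp3a44 (0.821), Cyp2a4 (0.800), Sult2a1 (0.903) and the female-biased list (0.848). It was highest in Cyp7b1 (0.723), Cyp2d9 (0.787), Moxd1 (0.958) and the male-biased list (0.932). Asymptomatic 2 was highest of its group in Gzmb (0.737), Ighg2c (0.908), Igkc (0.788), Mrc1 (0.811), the mitosis list (0.778), the TET and DNA methylation list (0.718) and the female-biased list (0.720), and lowest in Nudt7 (0.909) and Obp2a (0.754). AIH 3 was highest in Myb (0.715), Dnajb9 (0.733), Rian (0.854) and the fetal liver list (0.848), and lowest in the dendritic cell list (0.903). AIH 5 was lowest in Ccl8 (0.742), H2-Ab1 (0.774) and H2-Aa (0.771). AIH 2 was highest in Cxcl16 (0.904) and lowest in Ppara (0.753). Asymptomatic 1 was lowest in Il2rg (0.855) and highest in the clock list (0.796), in Rhag (1) and in Gzmk (1), where it alone had any count. Asymptomatic 4 was highest in Cd86 (0.763), and asymptomatic 3 lowest in F5 (0.719).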

How the results depend on the processing

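The 4355 calls became 1372 with sex as a term (1222 higher, 150 lower), 671 with sex as a term and only the 10 libraries of both groups (646 and 25), an alternative chosen after seeing the data, 812 within males (785 and 27) and 562 with the unaligned share as a term (544 and 18). Under library totals alone 442 genes were lower. RLE factors, TMM without the 20 most abundant genes, both other filters, DESeq2, limma-voom, a robust fit and a fit of only both groups gave 3440 to 5515 calls, all within 1.5 times. Leaving out each library in turn gave 3317 to 4649 calls, 2342 to 2906 higher and 975 to 1743 lower. Of the named genes called, the call was lost in 8 of these 10 fits for Nudt7, in 7 for C8b, F5 and Saa1, in 5 for Klrb1c and Moxd1, in 4 for Cyp7b1, Hp, Mrc1, Muc1 and Proc, in 3 for Serpina4-ps1 and in 1 for Hdc, Prom1, Cyp1b1 and Sult2a5, with highest adjusted p from 0.051 to 0.10, and 0.32 for Moxd1 (log2 difference from -9.84 to -1.90). A call was gained for Tet2 without asymptomatic 2 (adjusted p = 0.043, range 0.043 to 0.20), and for Cyp2d9 and Slco1a1 without AIH 4 (0.00054 and 0.0073). Signs turned within males, as log2 differences, for Prtn3 (-0.13), Hdc (-0.41), Rhag (-2.19), Slc4a1 (-0.66), Orm2 (-0.57), Apcs (-0.14), Orm3 (-1.57), Cyp2a4 (-1.48), Sult2a1 (-1.35), Cyp3a41a (-1.48), Saa1 (-1.56) and Hp (-0.11), while Sult2a5 and Sult2a4, with no count in any of these males, gave 0. With sex as a term and only both groups they were -0.15 for Prtn3, -0.42 for Hdc, -0.67 for Slc4a1, -0.58 for Orm2, -0.15 for Apcs, -1.58 for Orm3, -1.49 for Cyp2a4, -1.36 for Sult2a1, -1.58 for Saa1 and -0.12 for Hp. With sex as a term in all libraries they were -0.62 for Orm3, -0.18 for Cyp3a44, -1.002 for Cyp2a4, -1.73 for Sult2a1 and -0.053 for Saa1. With the unaligned share as a term they were 0.27 for C8b, 0.61 for Nudt7 and 5.04 for Moxd1 (adjusted p = 0.024), and leaving out each library in turn put Cyp4a14 between -4.01 and 3.15, the highest without asymptomatic 2. The cause was not tested in any of these. Depth limits genes of few counts, such as Ifng with 14 counts over 10 livers. No paired analysis was possible because replicate numbers follow accession order and the labels tie no mouse of one group to a mouse of the other.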
